A study of Mus musculus with 36 samples.

Results

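Liver transcripts of mice without the insulin receptor in hepatocytes were compared with those of control mice at Zeitgeber time (ZT) 8, late in the light phase. The comparison held 12 of the 36 arrays of the study, 6 from knockouts and 6 from controls, with 1 liver RNA sample per array, chosen by the genotype and time in their labels. The knockouts (labelled IRLKO or IRhep-/-) carried an insulin receptor gene, Insr, floxed at exon 4 and TTR-CreTam, a tamoxifen-inducible Cre recombinase driven by the transthyretin promoter, which is active in hepatocytes. The controls (IRLWT, IRhep+/+) kept the receptor. All were male C57BL/6J mice aged 11 weeks, fed chow without restriction, with lights off at ZT12. The labels give neither the time between tamoxifen and sampling nor whether controls carried the Cre transgene, and they state no treatment. They number the replicates without saying whether animals were pooled, so p-values measure the spread between these samples. The other 24 arrays were knockouts and controls taken at ZT12 and ZT16. They share the fit and supply the later genotype effects against which ZT8 is set.

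Insulin binds its receptor on the hepatocyte surface, and the signal passes through the insulin receptor substrates and phosphatidylinositol 3-kinase to the kinase Akt. Akt keeps the transcription factor FoxO1 out of the nucleus, which lowers genes of glucose production, and it activates SREBP-1c, which raises genes of fatty acid synthesis. Mice eat mainly in the dark, so that late light lies at the end of the daily fast, when the liver draws on glycogen and fatty acids. The hepatic clock, body temperature, glucocorticoids and feeding each set daily rhythms of liver transcripts.

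Values are log2 processed signal minus the 75th percentile of the array, so that a value of 0 lies at that percentile. Of 22886 genes tested, 8114 (35.5%) differed between genotypes at ZT8 at an adjusted p under 0.05 (limma, Benjamini-Hochberg over all genes), and these are termed called. Of these, 3828 (16.7% of all tested) were higher in knockouts and 4286 (18.7%) lower. The 2 groups of 6 arrays did not overlap for 3555 genes (15.5%). At the later times 42.3% of genes were called at ZT12 and 40.0% at ZT16. The genotype effect at ZT8 was then set against the mean of the effects at ZT12 and ZT16, and this difference was called for 1601 genes (7.00%), with 746 (3.26%) positive and 855 (3.74%) negative. Among them, 327 genes (1.43%) rose at ZT8 and rose more than later, 419 (1.83%) fell and fell more than later, and 483 (2.11%) were called at both later times in 1 direction but not at ZT8. Genes called at ZT8 and at neither later time numbered 1585. Of these, the difference from the later times was called for 299, so for the other genes an effect particular to ZT8 was not shown. Both pairwise differences, against ZT12 and against ZT16, were called in the same direction for 224 genes. Counts over gene lists below are to be read against the shares of all genes, 16.7% higher and 18.7% lower at ZT8. For the difference these shares are 3.26% positive and 3.74% negative.

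Knockout ZT8 replicate 3 stood apart from the other 5 knockouts. Over the 12 arrays it scored 79.8 on the second principal component, where the other 11 ranged from -33.9 to 13.6, and 2438 genes deviated over 2-fold from the mean of the other 5 knockouts, against 443 to 1100 for each of those. Counts over gene lists are therefore also given without this array, or without any other, where a count in 1 direction moved by over 1.5 times and the larger count was at least 4. Without it, 8253 genes (36.1%) were called at ZT8, 4182 higher and 4071 lower, and 7140 genes were called with the same sign either way. The ZT8-against-later difference was called for 2655 genes (11.6%) without it, with 608 stronger rises (2.66%), 640 stronger falls (2.80%) and 838 weaker effects (3.66%). Leaving out knockout ZT8 replicate 5 gave 205 stronger rises, knockout ZT8 replicate 2 gave 217, and control ZT8 replicate 6 gave 276 stronger falls. Of the 327 stronger rises 311 were also found without knockout ZT8 replicate 3, as were 385 of the 419 stronger falls. Over the 36 arrays, 53.7% to 63.1% of spots carried the deposited flag for a signal well above background, and none was saturated. The arrays were washed in 3 batches, which the fit holds as a term. All 122 genes named here and called at ZT8 had the same direction within each batch. These genes were chosen by their effects on the same arrays, so this was likely beforehand and tests no batch effect.

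Insr itself, read by the brighter of its 2 probes, lay at -1.81 to -1.01 (median -1.40) in controls and at -3.54 to -2.94 (median -3.05) in knockouts. No knockout reached the lowest control. The difference was -1.77 ± 0.13 (SE, adjusted p = 1.2e-11), a 3.42-fold lower signal. It was -1.67 without replicate 3 and -0.98 with normexp background correction. The later differences were -1.88 at ZT12 and -1.65 at ZT16, and the ZT8-against-later difference of -0.01 ± 0.16 (SE) was not called (adjusted p = 0.99). This probe lies at chr8:3155472-3155531 on build mm9, and the dimmer one at chr8:3159473-3159532, where the difference was -0.93 and 4 of 6 knockouts were well above background. Each probe separated the genotypes (two-sided exact permutation test, p = 0.00216, the smallest that 6 against 6 allows). Whether either probe lies in the deleted exon was not analysed here. The arrays read whole liver, in which fewer cells with a transcript and less transcript per cell cannot be told apart, and cells other than hepatocytes keep the receptor.

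Downstream of the receptor, 8 of 34 tested genes of insulin signalling rose at ZT8 and 8 fell, against 16.7% and 18.7% of all genes. Irs2, an adaptor that binds the activated receptor and a FoxO1 target, lay at 1.68 to 2.64 (median 2.37) in controls and 3.65 to 5.02 (median 4.75) in knockouts, with no overlap. It rose by 2.30 ± 0.29 (adjusted p = 3.3e-07), 4.91-fold. Irs1, the other main adaptor, rose by 0.64 (adjusted p = 0.0013), and by 0.82 without replicate 3, whose value of 1.43 lay below the other knockouts at 2.34 to 2.71. Akt1 rose by 0.48 (adjusted p = 1.5e-06) on the probe used, and its other 2 probes gave -0.14 and 0.77.

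The difference from the later times was called for 2 of the 34. Pik3r1, the regulatory subunit of phosphatidylinositol 3-kinase, fell at every time, but least at ZT8. Its values ran 1.53 to 1.85 (median 1.63) in controls and 0.45 to 1.17 (median 0.84) in knockouts, a difference of -0.80 against -1.22 at ZT12 and -1.80 at ZT16 (difference adjusted p = 0.0034). Trib3, a pseudokinase that binds Akt and is induced by ATF4, showed no called genotype effect at ZT8, with 2.41 to 3.45 (median 3.24) in controls and 2.69 to 3.46 (median 3.27) in knockouts, while it was higher in knockouts by 1.86 at ZT12 and 2.29 at ZT16 (difference adjusted p = 2.1e-04). Control means of Trib3 were 3.12 at ZT8 and 0.09 and 0.02 at the later times, and knockout means 3.20, 1.98 and 2.32.

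**Figure D1:**
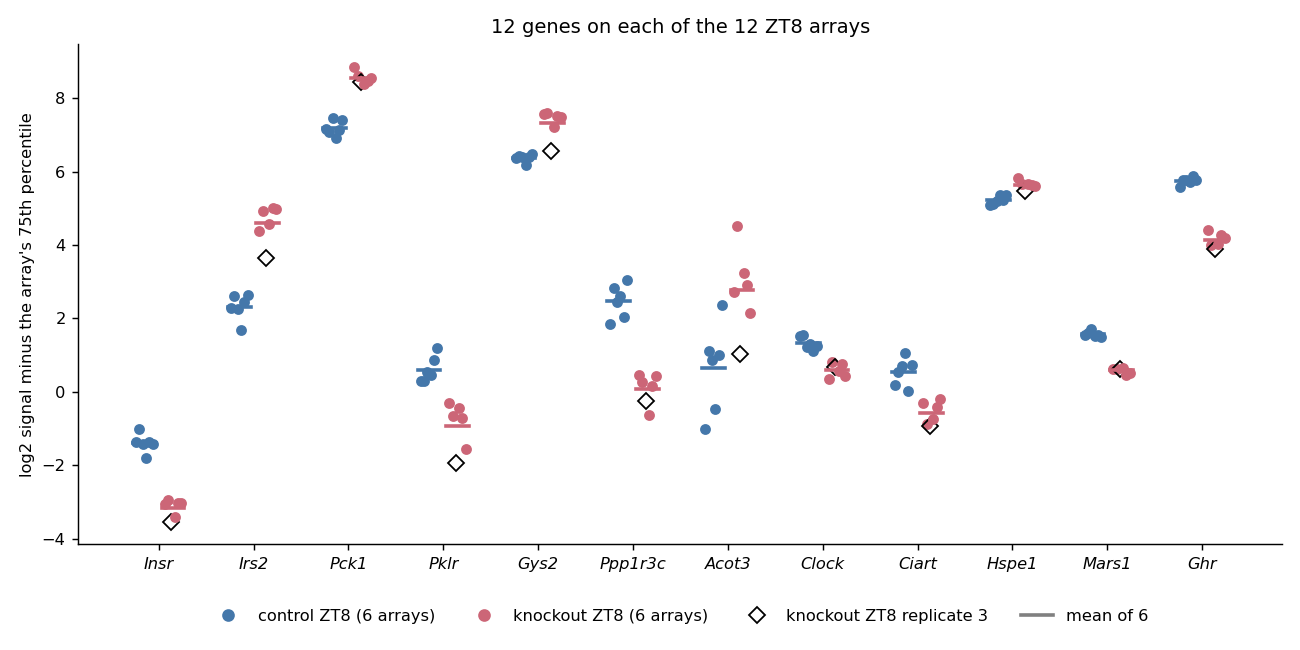
Log2 signal minus each array's 75th percentile (y axis) for 12 genes on the 6 control and 6 knockout ZT8 arrays. Points are arrays, bars are means of 6, and open diamonds mark knockout replicate 3, which is the lowest knockout for Irs2 (3.65), Pklr (-1.93), Gys2 (6.55) and Acot3 (1.04) but lies among the others for Clock (0.67).

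Genes of glucose production and FoxO targets were higher in knockouts in 9 of 20 cases and lower in 3, with a median difference of 0.17. Igfbp1, a secreted binding protein of insulin-like growth factors and a classical FoxO1 target, lay at 3.59 to 5.25 (median 4.08) in controls and 8.04 to 8.68 (median 8.24) in knockouts. All knockouts exceeded all controls, by 4.05 ± 0.47 or 16.6-fold (adjusted p = 6.5e-08). Pck1, which commits carbon to gluconeogenesis, rose from a control median of 7.14 (6.93 to 7.45) to a knockout median of 8.52 (8.39 to 8.86), 2.62-fold. Ppargc1a, a coactivator of gluconeogenic and mitochondrial genes, rose by 2.19 ± 0.19 (adjusted p = 2.9e-10). For Igfbp1, Pck1 and Ppargc1a, the ZT8-against-later difference was not called (adjusted p of 0.16, 0.95 and 0.81). The sestrins Sesn1 and Sesn3, FoxO targets that restrain mTORC1, did differ. At ZT8 they gave 0.09 and 0.08, neither called, against 0.64 and 0.52 at ZT12 and 0.42 and 0.81 at ZT16 (difference adjusted p = 0.012 and 0.0017).

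The 250 bases before the starts of Igfbp1 and Irs2 are shown because these genes rose strongly together and both windows hold the insulin response element CAAAACAA, to which FoxO proteins bind. They are RefSeq sequences on build GRCm38.p6, from chr11:7197537-7197786 (plus strand) and chr8:11008930-11009179 (minus strand), printed 5′ to 3′. Capitals mark CAAAACAA on either strand and, in Irs2, also the E-box CACGTG, which adjoins it without overlap. CAAAACAA, searched on both strands, was in 2.21% of 32851 mouse promoter windows of this length, and in 3 of 22 windows of the glucose production and FoxO list, those of Ccng2, Igfbp1 and Irs2. Among other genes named here it was in windows of Irs1 and Rplp0, which rose, and of Sucnr1 and Mrnip, which fell. The FoxO motif GTAAACA was in 1 of the 22 windows, that of Txnip, against 3.17% of all. Whether these motifs relate to the changes was not tested.
Igfbp1: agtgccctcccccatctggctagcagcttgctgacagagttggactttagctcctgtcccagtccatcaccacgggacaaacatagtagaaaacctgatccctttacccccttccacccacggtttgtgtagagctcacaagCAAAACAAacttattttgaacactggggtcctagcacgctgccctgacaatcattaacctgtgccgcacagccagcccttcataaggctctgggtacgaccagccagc
Irs2: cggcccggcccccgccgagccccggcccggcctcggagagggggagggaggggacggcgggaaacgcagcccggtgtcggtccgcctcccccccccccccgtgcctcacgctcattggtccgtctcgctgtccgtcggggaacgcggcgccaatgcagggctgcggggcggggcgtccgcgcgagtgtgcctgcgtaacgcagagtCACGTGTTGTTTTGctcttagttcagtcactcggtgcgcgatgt

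In glucose uptake and glycolysis, 5 of 28 genes rose at ZT8 and 6 fell, against 16.7% and 18.7% of all genes. Pklr, liver pyruvate kinase, fell from a control median of 0.49 (0.28 to 1.20) to a knockout median of -0.69 (-1.93 to -0.30), or 2.95-fold. Gpi1, phosphoglucose isomerase, rose by 0.59 (adjusted p = 7.3e-06) against 0.15 at ZT12 and 0.09 at ZT16. Eno1, enolase, lay at 6.16 to 6.44 (median 6.26) in controls and 6.59 to 7.17 (median 6.86) in knockouts, a rise of 0.56 against 0.11 at ZT12 and -0.03 at ZT16 (difference adjusted p = 0.0036). Of its 3 probes, the second gave 0.35 at ZT8, 0.13 at ZT12 and 0.60 at ZT16, so it rose most at ZT16. The dimmest gave 0.63, 0.08 and -0.16. The difference from the later times was positive for 4 of the 28 genes and negative for none, against 3.26% and 3.74% of all genes, and positive for 12 and negative for 1 without replicate 3, which lay below the other 5 knockouts for 21 of the 28.

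Glycogen genes moved both ways at ZT8, with 7 of 19 higher and 6 lower. Glycogen synthase is switched on by protein phosphatase 1, which a family of regulatory subunits brings to the glycogen particle, and these subunits differed from each other. Ppp1r3g was low in controls, at -1.76 to 1.19 (median -0.86), and reached 4.00 to 5.93 (median 5.71) in knockouts, a rise of 6.16 ± 0.43 or 71.3-fold (adjusted p = 2.2e-12), with replicate 3 lowest of the knockouts at 4.00. Ppp1r3b, the main hepatic subunit, rose from a control median of 6.12 (5.90 to 6.60) to a knockout median of 7.35 (6.94 to 7.53), by 1.10 ± 0.12. Its effect was smaller at ZT12 (0.53) and negative at ZT16 (-0.30), with a difference adjusted p of 5.4e-05.

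Gys2, the liver glycogen synthase itself, followed the order of Ppp1r3b. It lay at 6.19 to 6.48 (median 6.40) in controls and 6.55 to 7.60 (median 7.50) in knockouts, so that every knockout was above every control, and replicate 3 at 6.55 was closest to the controls. The rise was 0.95 ± 0.13 (adjusted p = 9.4e-07), 1.13 without replicate 3, 0.26 at ZT12 and -0.48 at ZT16 (difference adjusted p = 9.3e-05). Control means were 6.38, 6.63 and 6.29 at ZT8, ZT12 and ZT16, and knockout means 7.32, 6.90 and 5.82. Ppp1r3c, another subunit, went the other way. It fell from a control median of 2.52 (1.85 to 3.05) to a knockout median of 0.21 (-0.62 to 0.45), a difference of -2.42 ± 0.32 or 5.34-fold (adjusted p = 6.2e-07), against -0.97 at ZT12 and -0.08 at ZT16 (difference adjusted p = 0.0033).

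Fatty acid synthesis fell at ZT8, with 12 of 20 genes lower and none higher (11 and 2 without replicate 3), and a median of -0.82. Srebf1, which encodes SREBP-1c, fell from a control median of 6.61 (6.32 to 7.33) to a knockout median of 4.95 (4.53 to 5.57), or 3.48-fold (adjusted p = 7.2e-09). Scd1, the stearoyl-CoA desaturase, fell from a control median of 7.82 (7.38 to 8.35) to a knockout median of 5.77 (4.39 to 5.96), with replicate 3 lowest. Slc25a1, the mitochondrial citrate exporter, fell by 0.91 ± 0.08. Elovl3, a fatty acid elongase also counted among the male-biased genes below, lay at 3.52 to 4.34 (median 4.17) in controls. It was well above background on 5 of 6 knockouts, with a difference of -7.38. For these 4 genes the ZT8-against-later difference was not called (adjusted p from 0.21 to 0.85).

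For 3 other genes of the list the fall at ZT8 did differ. The difference from later was positive for 2 of the 20 genes and negative for 1, against 3.26% and 3.74% of all genes. Without replicate 3 it was positive for 4 and negative for 1. Thrsp, a regulator of lipogenesis, ran from a control median of 6.87 (5.75 to 7.09) to a knockout median of 3.59 (3.07 to 5.25), a difference of -2.86 that was smaller than those of -4.46 at ZT12 and -5.08 at ZT16 (difference adjusted p = 0.0028). Me1, malic enzyme, which supplies NADPH, fell by 0.73 (adjusted p = 0.018) against -2.29 at ZT12 and -1.53 at ZT16. Without replicate 3, the lowest knockout at 3.46, the ZT8 effect of Me1 was -0.56 and no longer called (adjusted p = 0.068). Elovl5, an elongase of polyunsaturated fatty acids, showed the opposite order. It fell by 0.64 (adjusted p = 0.011), with groups that overlapped, and gave 0.18 at ZT12 and 0.76 at ZT16 (difference adjusted p = 0.0044). Its dimmest probe, well above background on 3 of the 12 arrays, gave 0.46 at ZT8.

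Of 25 genes of triglyceride synthesis and lipid droplets, 3 rose and 10 fell at ZT8, and 7 rose and 9 fell without replicate 3. The median was -0.10 at ZT8, against -0.56 at ZT12 and -0.59 at ZT16. Agpat2, the acyltransferase that forms phosphatidic acid, fell 2.10-fold, from a control median of 6.27 (6.11 to 6.56) to a knockout median of 5.23 (5.09 to 5.41). Dgat2, which makes triglyceride from diglyceride, fell 2.13-fold, with replicate 3 at 5.68 and the other knockouts at 6.21 to 6.74. The difference was positive for 5 genes and negative for 1. Plin4, a lipid droplet coat protein, gave 0.68 at ZT8 (adjusted p = 0.14), with replicate 3 at -2.24 far below the other knockouts at -0.23 to 0.78. Without that array it was 1.11 (adjusted p = 0.0033), and at the later times -0.49 at ZT12 and -1.25 at ZT16. The negative member was Lpin3, a phosphatidate phosphatase, at -1.03 against -0.56 at ZT12 and 0.15 at ZT16 (difference adjusted p = 0.0022), and its dimmer probe, above background on 2 of the 12 arrays, gave 0.53. The count of 5 and 1 became 1 and 1 without knockout replicate 2, 2 and 1 without knockout replicate 5, 3 and 1 without control replicate 3 or 4, and 8 and 1 without replicate 3.

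Of 30 genes of lipoprotein handling 5 rose and 9 fell at ZT8, against 16.7% and 18.7% of all genes. Lpl, lipoprotein lipase, which liver normally holds at a low level, rose from a control median of 0.50 (-0.12 to 0.80) to a knockout median of 2.80 (2.55 to 3.28), or 5.54-fold (adjusted p = 1.4e-08), although 1 of its 6 probes gave 0.03. Angptl8, an insulin-induced inhibitor of the lipase, fell from a control median of 6.48 (5.63 to 7.17) to a knockout median of 3.84 (3.71 to 3.95), or 5.70-fold.

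Genes of fatty acid oxidation and ketogenesis, which burn fatty acids and turn them into ketone bodies, were counted at each time. Of 52 genes, 18 rose and 11 fell at ZT8 (medians 0.11 at ZT8, against -0.25 at ZT12 and -0.26 at ZT16). Without replicate 3, 23 rose and 7 fell at ZT8, without knockout replicate 2 15 rose and 18 fell, and in a fit of the 12 ZT8 arrays alone 14 rose and 4 fell. At ZT12 6 rose and 22 fell, and at ZT16 4 rose and 22 fell. Of all genes, 42.3% were called at ZT12 and 40.0% at ZT16, both directions together. The ZT8-against-later difference was positive for 13 genes and negative for none, against 3.26% and 3.74% of all genes. Without replicate 3 it was positive for 33 and negative for none. Without knockout replicate 2 or knockout replicate 5 it was positive for 8 and 7. Replicate 3 was below all other knockouts for 46 of the 52 genes, against 35.6% of all genes, and its median deviation from them was -0.76.

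The acyl-CoA thioesterases, a gene cluster whose enzymes release free fatty acids from CoA in mitochondria, peroxisomes and cytosol, showed large differences, and close similarity among them means that their probes may share signal. Acot2, the mitochondrial member, lay at -1.13 to -0.08 (median -0.90) in controls and 0.40 to 3.14 (median 0.98) in knockouts, without overlap. It rose by 2.00 ± 0.33 or 4.00-fold (adjusted p = 1.5e-05) and gave 0.13 at ZT12 and 0.16 at ZT16. Acot3, a peroxisomal member, varied widely, with -1.02 to 2.37 (median 0.93) in controls and 1.04 to 4.53 (median 2.82) in knockouts, and the groups overlapped. It rose by 2.07 ± 0.47 (adjusted p = 8.6e-04), against -0.56 at ZT12 and -1.11 at ZT16 (difference adjusted p = 0.0021). Acot4, also counted among the female-biased genes below, rose by 1.16 against -0.22 at ZT12 and -0.79 at ZT16 (difference adjusted p = 9.3e-05).

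Acot5, peroxisomal as well, ran from a control median of -2.55 (-2.93 to -1.79) to a knockout median of -0.70 (-2.86 to 0.83), and replicate 3 at -2.86 lay among the controls while the other knockouts lay at -1.22 to 0.83. It rose by 1.68 (adjusted p = 8.5e-04) on its brighter probe, and its dimmer probe gave 0.12. Acaa1a, a peroxisomal thiolase, gave 0.20 (adjusted p = 0.088, and 0.027 without replicate 3) against -0.30 at ZT12 and -0.71 at ZT16. Its dimmer probe gave -0.25 at ZT8, -0.67 at ZT12 and -0.84 at ZT16. Pex11a, which drives peroxisome proliferation, was lower in knockouts later (-1.47 at ZT12 and -1.81 at ZT16) but not called at ZT8, at -0.43 (adjusted p = 0.084). Knockout replicate 2 was at 6.59 for Pex11a, and without it the fall at ZT8 was called (adjusted p = 0.00028). The difference of Pex11a from the later times had an adjusted p of 0.0022.

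**Figure D2:**
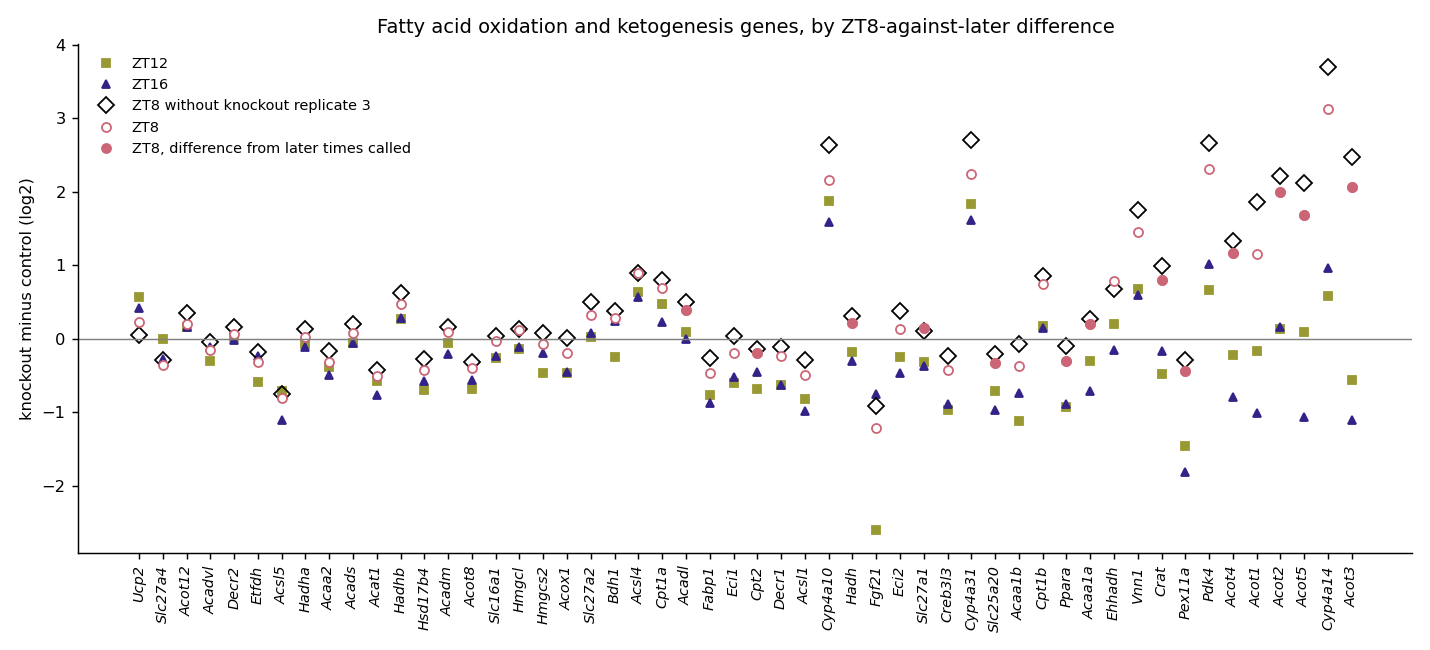
Knockout minus control (log2, y axis) for the 52 genes of fatty acid oxidation and ketogenesis at ZT8 (circles, filled where the difference from the later times was called), ZT8 without knockout replicate 3 (diamonds), ZT12 (squares) and ZT16 (triangles), ordered by the difference. The 13 filled circles lie above the mean of their squares and triangles, with Acot3 at 2.07 furthest from its later values.

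Cholesterol synthesis fell at ZT8 in 18 of 25 genes and rose in none, with a median of -0.63 that was -0.51 at ZT12 and -0.62 at ZT16. Tm7sf2, a sterol reductase, fell from a control median of 5.95 (5.79 to 6.12) to a knockout median of 4.35 (4.02 to 4.89), or 2.89-fold. Nsdhl, a sterol dehydrogenase, fell from a control median of 2.55 (2.46 to 2.79) to a knockout median of 1.04 (0.13 to 2.07), with a wide spread among knockouts and no overlap. This was a list in which replicate 3 was not low, with none of the 25 genes below and 3 above the other knockouts. Genes of bile acid synthesis and transport moved both ways, with 6 of 26 higher and 8 lower, against 16.7% and 18.7% of all genes.

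Hsd3b7, the dehydrogenase that follows the first hydroxylation in bile acid synthesis, fell at ZT8 from a control median of 7.44 (7.23 to 7.56) to a knockout median of 6.44 (6.02 to 6.62). The difference of -1.04 ± 0.10 (adjusted p = 8.2e-10) stood against -0.34 at ZT12 and 0.33 at ZT16 (difference adjusted p = 3.1e-06). Scp2, a peroxisomal thiolase and sterol carrier, fell 2.01-fold at ZT8, with replicate 3 at 6.77 and the others at 7.31 to 7.43. Abcc3, a basolateral exporter of bile acids, rose from a control median of 4.94 (4.60 to 5.29) to a knockout median of 6.03 (5.79 to 6.41), by 1.18 against 0.49 at ZT12 and 0.55 at ZT16 (difference adjusted p = 0.017). Nr1h4, the bile acid receptor FXR, fell by 0.53 at ZT8 and by more later, at -1.21 at ZT12 and -1.42 at ZT16 (difference adjusted p = 0.0032).

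Of 18 circadian clock genes 8 fell at ZT8 and none rose, and 5 fell and 2 rose without replicate 3. The difference from the later times was positive for 6 and negative for 3, against 3.26% and 3.74% of all genes. Without replicate 3 it was positive for 11 and negative for 3. The 3 negative genes were Clock, Arntl and Bhlhe41. Clock, the activator that pairs with BMAL1, lay at 1.11 to 1.54 (median 1.27) in controls and 0.36 to 0.82 (median 0.62) in knockouts, without overlap. It fell by 0.70 ± 0.08 (adjusted p = 7.5e-08), -0.71 without replicate 3, and gave 0.01 at ZT12 and 0.03 at ZT16 (difference adjusted p = 5.0e-05). Within the 3 wash batches the difference was -0.58, -0.61 and -0.81. Control means of Clock were 1.32, 1.34 and 1.88 at ZT8, ZT12 and ZT16, and knockout means 0.60, 1.37 and 1.92. These values are those of the brightest of its 3 probes. The dimmer ones gave -0.45 and -0.42 at ZT8, 0.03 and 0.05 at ZT12, and -0.30 and -0.21 at ZT16.

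Arntl, which encodes BMAL1, was dim at ZT8, well above background on 5 of 6 controls and 2 of 6 knockouts. It lay at -4.21 to -2.99 (median -3.84) in controls and -6.79 to -3.98 (median -5.04) in knockouts, a difference of -1.41 (adjusted p = 0.0012) against 0.49 at ZT12 and 0.48 at ZT16. The call was lost with normexp background correction (adjusted p = 0.17) and in the authors' table (0.13), and its other 2 probes gave -0.62 and 0.06. Bhlhe41, an E-box repressor also called DEC2, was well above background on all 6 controls, at -3.45 to -3.00 (median -3.22), and on no knockout, so its fall is given as at least 3.55-fold (adjusted p = 2.1e-07). The later effects of Bhlhe41 were -0.21 at ZT12 and 0.06 at ZT16 (difference adjusted p = 1.8e-04). Bhlhe40, its close relative, fell by 0.60 at ZT8 without a called difference from later.

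The 6 positive genes were Per1, Per2, Per3, Tef, Hlf and Ciart. Ciart, a repressor of CLOCK and BMAL1, lay at 0.03 to 1.05 (median 0.63) in controls and -0.93 to -0.19 (median -0.58) in knockouts. The difference of -1.18 ± 0.30 (adjusted p = 0.0025) was far smaller than those of -2.93 at ZT12 and -5.29 at ZT16 (difference adjusted p = 1.0e-05). Control means of Ciart were 0.54, -0.80 and -1.25 at the 3 times, and knockout means -0.57, -3.79 and -6.58. Per2, a core repressor, overlapped between genotypes at ZT8, with 1.56 to 2.43 (median 2.20) and 1.51 to 2.38 (median 2.13), and gave -0.11 (adjusted p = 0.64) against -0.90 at ZT12 and -2.26 at ZT16. Tef, an output factor that binds the D-box, gave 0.25 (adjusted p = 0.12) and 0.36 without replicate 3 (adjusted p = 0.013), against -0.32 at ZT12 and -1.23 at ZT16. Its other probes gave 0.19, -0.43 and 0.44 at ZT8.

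The window before the start of Ciart is shown because Ciart had the largest positive difference of the clock list and 3 E-boxes, CACGTG, in 250 bases. It lies at chr3:95882229-95882478 (minus strand, RefSeq, build GRCm38.p6), with the E-boxes in capitals. CACGTG, a palindrome, was in 6.02% of the 32851 windows and in 6 of 21 windows of the clock list (those of Bhlhe41, Ciart, Cry1, Per1 and Tef, some genes having several windows). The D-box TTATGTAA was in 1 of the 21, against 0.819% of all.
Ciart: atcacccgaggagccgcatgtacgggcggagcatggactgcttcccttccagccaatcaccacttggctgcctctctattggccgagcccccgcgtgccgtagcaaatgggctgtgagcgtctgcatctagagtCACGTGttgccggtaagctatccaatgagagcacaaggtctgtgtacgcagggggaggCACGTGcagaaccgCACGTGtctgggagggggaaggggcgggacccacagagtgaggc

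Heat shock proteins keep other proteins folded, and some of their genes follow body temperature. At ZT8 7 of 23 rose and 2 fell (medians 0.15 at ZT8, against -0.18 at ZT12 and -0.36 at ZT16), and the difference from the later times was positive for 12 and negative for 1. These counts were 10 and 2 without replicate 3. Of all genes the difference was positive for 3.26% and negative for 3.74%. Hspa8, the constitutive 70-kDa chaperone HSC70, lay at 5.39 to 5.62 (median 5.55) in controls and 5.63 to 6.34 (median 6.20) in knockouts, without overlap. Replicate 3, at 5.63, was next to the highest control. Hspa8 rose by 0.61 ± 0.09 (adjusted p = 5.5e-06), against -0.03 at ZT12 and -0.37 at ZT16 (difference adjusted p = 5.0e-05). Its control means were 5.53 at ZT8 and 6.62 and 7.18 later, and its knockout means 6.14, 6.59 and 6.80.

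Hspe1, the mitochondrial cochaperonin HSP10, lay at 5.08 to 5.37 (median 5.22) in controls and 5.47 to 5.82 (median 5.65) in knockouts. It rose by 0.40 ± 0.08 (adjusted p = 4.0e-04) against 0.06 at ZT12 and -0.10 at ZT16 (difference adjusted p = 0.012). Hsp90aa1, the inducible HSP90, gave 0.35 (adjusted p = 0.029) with overlapping groups, against -0.46 at ZT12 and -0.47 at ZT16 (difference adjusted p = 0.0013). The ZT8 call of Hsp90aa1 was lost without any of 7 of the 12 arrays (knockout replicates 2 to 6, control replicates 5 and 6), with adjusted p between 0.051 and 0.067. Dnaja1, a cochaperone, was not called at ZT8 (-0.14) and lower later, at -0.56 at ZT12 and -1.03 at ZT16. The negative member was Cirbp, an RNA-binding protein induced by cold. It lay at 2.49 to 3.02 (median 2.77) in controls and 1.99 to 2.67 (median 2.46) in knockouts, a difference of -0.42 (adjusted p = 0.016) against -0.07 at ZT12 and 0.84 at ZT16 (difference adjusted p = 0.003). The ZT8 call of Cirbp was lost without knockout replicate 4 (adjusted p = 0.055), and 1 of its other 2 probes gave 0.28.

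The window before the start of Hspe1 is shown because it holds GAANNTTC, the core of the heat shock element, in capitals, and because the gene rose at ZT8 and differed from later. It lies at chr1:55087898-55088147 (plus strand, RefSeq, build GRCm38.p6). GAANNTTC, a palindrome, was in 6.69% of the 32851 windows and in 7 of 23 windows of the heat shock list (Dnaja1, Fkbp4, Hspa1a, Hspa1b, Hspb1, Hspd1 and Hspe1).
Hspe1: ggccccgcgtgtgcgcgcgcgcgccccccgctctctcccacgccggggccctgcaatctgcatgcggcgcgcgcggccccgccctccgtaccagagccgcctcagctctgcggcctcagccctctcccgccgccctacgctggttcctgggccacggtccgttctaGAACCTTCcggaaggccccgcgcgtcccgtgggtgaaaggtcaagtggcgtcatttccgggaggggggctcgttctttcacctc

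Glucocorticoid-responsive genes rose in 6 of 20 cases at ZT8 and fell in 3. The median was 0.34 at ZT8, against 0.38 at ZT12 and -0.52 at ZT16. The difference was positive for 6 and negative for 1, against 3.26% and 3.74% of all genes. Without replicate 3 it was positive for 4 and negative for 1. Leaving out 1 of 8 arrays in turn (control ZT16 replicate 6, control ZT8 replicates 2 to 5, knockout ZT8 replicates 2, 4 and 5) brought the 6 to 2 or 3. Fkbp5, a cochaperone of the glucocorticoid receptor and a common readout of its activity, was not called at ZT8, with 2.03 to 2.30 (median 2.14) in controls and 1.91 to 3.37 (median 2.48) in knockouts. It gave 0.39, against -0.29 at ZT12 and -2.45 at ZT16 (difference adjusted p = 5.3e-04). Sgk1, a kinase of the same response, was the negative member, at 0.85 (adjusted p = 0.017) against 2.12 at ZT12 and 2.46 at ZT16.

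The metallothioneins, small proteins that bind zinc and respond to metals and glucocorticoids, rose steeply. Mt1 lay at 3.78 to 5.68 (median 4.08) in controls and 7.10 to 7.49 (median 7.21) in knockouts, a rise of 2.84 ± 0.33 or 7.15-fold. Mt2 lay at 1.46 to 4.28 (median 2.24) and 5.74 to 6.89 (median 6.25), a rise of 3.85 ± 0.46 or 14.4-fold (adjusted p = 1.1e-07). The later effects of Mt2 were 3.19 at ZT12 and 0.85 at ZT16 (difference adjusted p = 0.047). The call was lost without any 1 of 24 of the 36 arrays (control ZT8 replicates 1, 2, 3, 4 and 5, knockout ZT8 replicates 2, 3, 4, 5 and 6, control ZT12 replicates 2 and 5, knockout ZT12 replicates 2, 3, 5 and 6, control ZT16 replicates 1, 3, 4 and 6, knockout ZT16 replicates 1, 2, 3 and 5), with adjusted p of 0.0547 to 0.113. Slc30a10, an exporter of manganese, fell from a control median of -0.56 (-0.93 to -0.04) to a knockout median of -3.02 (-3.15 to -2.23). Its difference of -2.25 was larger than those of -0.98 at ZT12 and -0.74 at ZT16 (difference adjusted p = 0.0012).

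Immediate early and cAMP-responsive genes rose in 12 of 26 cases and fell in 3 (13 and 5 without control replicate 1), with a median of 0.50. Nr4a2, an orphan nuclear receptor induced by cAMP, lay at -3.23 to -1.91 (median -2.94) in controls and -1.89 to 2.56 (median 0.44) in knockouts. Replicate 3 was at -1.89, just above the controls, and the other knockouts at 0.29 to 2.56. The rise was 3.51 ± 0.45, 4.06 without replicate 3, against 1.46 at ZT12 and 1.05 at ZT16 (difference adjusted p = 0.012). Crem, a repressor induced by cAMP, rose 2.30-fold, and Fos rose 5.45-fold, with replicate 3 highest at 1.85 and the others at -0.21 to 0.53. Egr1, a growth factor response gene, was not called at ZT8 (0.75) and higher later, at 3.19 at ZT12 and 2.19 at ZT16. Replicate 3 was also highest for Egr1, at 4.07 against 1.81 to 2.63. The difference of Egr1 had an adjusted p of 0.047. The call was lost without any 1 of 25 of the 36 arrays (control ZT8 replicates 1, 2, 3, 4 and 6, knockout ZT8 replicates 1, 2, 4, 5 and 6, control ZT12 replicates 1, 3, 4, 5 and 6, knockout ZT12 replicates 1 and 3, control ZT16 replicates 1, 2, 3, 4 and 6, knockout ZT16 replicates 1, 2 and 6), with adjusted p of 0.0523 to 0.115.

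Amino acid breakdown and the urea cycle turn amino acids into fuel and dispose of their nitrogen. At ZT8 11 of 46 genes were higher and 14 lower, against 16.7% and 18.7% of all genes. Slc7a2, a carrier of cationic amino acids, rose from a control median of 2.32 (2.12 to 2.66) to a knockout median of 3.53 (3.34 to 4.14), by 1.23 ± 0.15 (adjusted p = 8.0e-08). Haao, an enzyme of tryptophan breakdown on the way to NAD, fell from a control median of 6.84 (6.71 to 7.08) to a knockout median of 6.01 (5.28 to 6.23), with replicate 3 lowest. Glud1, glutamate dehydrogenase, fell by 0.64, with its other 2 probes at -0.95 and -0.14, and Gstz1, of tyrosine breakdown, fell by 0.68. For these 4 genes the ZT8-against-later difference was not called (adjusted p of 0.92, 0.74, 0.35 and 0.11).

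Of 28 genes of NRF2 and glutathione metabolism, which deal with oxidants, 7 rose and 13 fell. Aox1, aldehyde oxidase, fell from a control median of 3.71 (3.52 to 3.99) to a knockout median of 2.53 (2.36 to 2.74), and Taldo1, transaldolase of the pentose phosphate pathway, fell by 0.56 (adjusted p = 3.7e-09). Of 25 genes of autophagy and the lysosome 8 fell at ZT8 and 5 rose, or 6 rose without knockout replicate 3 and 1 to 4 without any other 1 of the 12 arrays. Atg5, needed to form the autophagosome membrane, fell from a control median of 3.38 (3.15 to 3.47) to a knockout median of 2.55 (2.29 to 2.78), and Map1lc3a, an LC3 protein of that membrane, fell by 0.73. Gabarapl2, of the same family, fell by 0.53 on its brightest probe, while its dimmest gave 0.45.

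In the growth hormone and IGF1 axis 6 of 17 genes rose and 5 fell, against 16.7% and 18.7% of all genes. Igfbp2, another secreted binding protein of insulin-like growth factors, lay at 5.44 to 6.24 (median 5.66) in controls and 7.86 to 8.61 (median 8.51) in knockouts, a rise of 2.69 ± 0.16 or 6.45-fold (adjusted p = 4.5e-14). Of 33 hepatocyte transcription factors and nuclear receptors 5 rose and 11 fell, or 3 and 8 in a fit of the 12 ZT8 arrays alone. Cebpa, which drives hepatocyte differentiation, fell by 0.64, and Nr2f6, an orphan receptor, fell by 0.43 on its brighter probe, with 0.04 on the other. Of 27 acute phase genes 7 rose at ZT8 and 6 fell, or 2 fell without control replicate 2 and 3 fell without control replicate 3, knockout replicate 5 or knockout replicate 6. Itih3, a serum protein that binds hyaluronan, rose by 0.83. Il6ra, the receptor subunit for interleukin 6, lay at 3.96 to 4.38 (median 4.29) in controls and 4.84 to 5.30 (median 5.01) in knockouts, a rise of 0.82 ± 0.14 against 0.38 at ZT12 and -0.29 at ZT16 (difference adjusted p = 0.0057).

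Of 30 genes of the ATF4 response and tRNA synthetases, 13 fell at ZT8 and 2 rose, and the difference from later was negative for 6 and positive for none (8 and none without replicate 3). The medians were -0.20 at ZT8, against -0.08 at ZT12 and 0.05 at ZT16. The aminoacyl-tRNA synthetases load amino acids onto tRNA. Mars1, for methionine, lay at 1.48 to 1.72 (median 1.56) in controls and 0.46 to 0.65 (median 0.62) in knockouts. It fell by 0.97 ± 0.10 (adjusted p = 4.9e-09), against -0.55 at ZT12 and -0.15 at ZT16 (difference adjusted p = 0.0019). Cars, for cysteine, fell from a control median of 3.73 (3.40 to 3.99) to a knockout median of 2.42 (2.36 to 2.61), a difference of -1.23 against -0.38 at ZT12 and -0.31 at ZT16. Lars, for leucine, and Sars, for serine, fell at ZT8 (-0.46 and -0.37) and were higher in knockouts by 0.22 and 0.21 at ZT16. None of these 4 overlapped between genotypes at ZT8, where 15.5% of all genes did not overlap. For the 4, replicate 3 lay at 0.63, 2.61, 2.35 and 3.37, within or next to the range of the other knockouts.

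Chaperones and degradation factors of the endoplasmic reticulum fell in 15 of 27 cases and rose in none, with a median of -0.41. Derl2, which helps to draw misfolded proteins out of the reticulum, fell from a control median of 6.11 (6.05 to 6.19) to a knockout median of 5.20 (5.04 to 5.40), 1.88-fold. Of 77 cytosolic ribosomal protein genes 34 rose and none fell, by a median of 0.22. Without replicate 3, which lay below all other knockouts for all 77, 64 rose, as with array weights. In a fit of the 12 ZT8 arrays alone 17 rose, and with quantile normalization 28 rose and 3 fell. Rplp0, a subunit of the ribosomal stalk, lay at 6.55 to 6.91 (median 6.73) in controls, at 6.81 in replicate 3 and at 7.35 to 7.45 in the other knockouts. Proteasome genes fell in 19 of 40 cases and rose in 2. Psme3, a nuclear proteasome activator, rose by 1.38 on its brighter probe and gave -0.29 on the other. Of 70 oxidative phosphorylation genes 18 fell and 4 rose, 38 fell and 2 rose with quantile normalization, and 8 fell and 1 rose in a fit of the 12 ZT8 arrays alone. Without replicate 3 the numbers were nearly even, with 12 that fell and 10 that rose, and without knockout replicate 4 they were 13 and 7. They were 23 and 2 without knockout replicate 1, 18 and 2 without knockout replicate 2 and 16 and 2 without knockout replicate 5. With array weights 17 fell and 10 rose, and 25 fell and 7 rose in the authors' table.

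Genes with sex-biased expression in liver were counted by sex. Of 16 female-biased genes 14 rose at ZT8 and 1 fell, with a median of 2.00, and of 20 male-biased genes 17 fell and none rose, with a median of -1.58. The female-biased median was 0.95 with normexp background correction and 1.20 in the authors' table, with 12 of 16 higher in both, and of the 10 genes well above background on every array 8 rose, with a median of 0.72. Of the male-biased genes 14 fell without replicate 3, and of 15 well above background on every array 13 fell, with a median of -1.12. Among the male-biased genes, Cyp4a12a, a fatty acid hydroxylase, lay at 2.58 to 3.43 (median 3.10) in controls and was well above background on 3 of 6 knockouts, with a difference of -7.79 ± 0.60. Hsd3b5, a steroid dehydrogenase, lay at 4.78 to 6.53 (median 6.36) in controls and -6.69 to -1.84 (median -3.52) in knockouts, 4 of them well above background. Nudt7, a peroxisomal CoA hydrolase, fell from a control median of 7.75 (7.37 to 7.88) to a knockout median of 5.24 (4.80 to 5.67), 5.43-fold. Replicate 3 lay below the other knockouts for 16 of the 20, by a median of -1.23.

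For the female-biased genes the medians were 2.00 at ZT8, 1.85 at ZT12 and 0.13 at ZT16, and the difference from later was positive for 5 of the 16 and negative for none. For the male-biased genes they were -1.58, -1.31 and -0.99, and the difference was called for none of the 20. Whether the lists differ from each other in this was not tested. Cux2, a repressor that is abundant in female liver, was well above background on 2 of 6 controls, at -5.92 to -4.51 (median -4.77), and on all knockouts, at -0.05 to 1.40 (median 0.38). It rose by 5.50 ± 0.26 at ZT8, against 4.96 at ZT12 and 3.44 at ZT16 (difference adjusted p = 0.012). Of its 3 probes, the second gave 5.59, 6.34 and 4.95 at the 3 times, and with the mean of the probes the difference from later was not called (adjusted p = 0.354, against 0.00537 to 0.0227 under the other settings). The size of the rise at ZT8 was 3.04 with normexp background correction and 3.79 in the authors' table. Fmo2, a flavin monooxygenase, rose from a control median of -1.04 (-1.32 to -0.45) to a knockout median of 1.84 (0.64 to 2.05), by 2.62 ± 0.23 against 1.81 at ZT12 and 0.51 at ZT16 (difference adjusted p = 0.0021). Cyp2a4, a steroid hydroxylase, was not called at ZT8 (0.22) and lower later, at -0.76 at ZT12 and -1.70 at ZT16. The receptors of the hormones that shape these genes changed as well. Ghr, the growth hormone receptor, fell from a control median of 5.78 (5.57 to 5.89) to a knockout median of 4.11 (3.89 to 4.41), or 3.09-fold (adjusted p = 2.1e-16). Esr1, the estrogen receptor, rose from a control median of 0.57 (0.49 to 1.12) to a knockout median of 1.69 (1.57 to 2.21), by 1.09 against 1.01 at ZT12 and -0.17 at ZT16 (difference adjusted p = 0.0039).

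In xenobiotic metabolism 8 of 40 genes rose at ZT8 and 15 fell, or 5 and 14 in a fit of the 12 ZT8 arrays alone. The difference was positive for 11 and negative for none, the same counts with and without replicate 3. Of all genes 16.7% rose and 18.7% fell at ZT8, and the difference was positive for 3.26% and negative for 3.74%. Por, the reductase that passes electrons to cytochromes P450, lay at 5.93 to 6.25 (median 6.17) in controls and 6.90 to 7.74 (median 7.61) in knockouts, and replicate 3 at 6.90 was the lowest knockout. It rose by 1.38 ± 0.14 against 0.86 at ZT12 and 0.18 at ZT16 (difference adjusted p = 0.0019). Nr1i2, the xenobiotic receptor PXR, rose by 0.47 (adjusted p = 0.0074) against -0.17 at ZT12 and -0.71 at ZT16. Aldh3a2, a dehydrogenase of fatty aldehydes, rose by 0.56 (adjusted p = 0.0074) against -0.39 at ZT12 and -0.71 at ZT16, with replicate 3 at 4.05 and the other knockouts at 4.91 to 5.61. The rises of Nr1i2 and Aldh3a2 were not called in a fit of the 12 ZT8 arrays alone (adjusted p = 0.052 and 0.11). Fmo5, a monooxygenase, fell by 0.69, less than -1.15 at ZT12 and -1.80 at ZT16.

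Among secreted proteins, the fibrinogen chains, which form the clot, each had a negative difference from later. Fga gave -0.39 at ZT8 (adjusted p = 0.034), 0.38 at ZT12 and 0.78 at ZT16. Its dimmer probe, well above background on every ZT8 array, gave -0.19 at ZT8, 0.10 at ZT12 and -0.13 at ZT16. Fgg gave -0.24 (adjusted p = 0.022), 0.14 at ZT12 and 0.40 at ZT16. Fgb gave -0.05 (adjusted p = 0.61), 0.25 at ZT12 and 0.52 at ZT16. The differences from later had adjusted p of 9.0e-04, 0.0021 and 0.0021, with overlapping groups at ZT8. The ZT8 call was lost without any 1 of 7 arrays for Fga (control replicates 2, 3, 5 and 6, knockout replicates 3, 5 and 6) and of 3 for Fgg (control replicate 2, knockout replicates 3 and 6), with adjusted p of 0.050 to 0.102 and 0.057 to 0.083.

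Saa4, a constitutive apolipoprotein of high density lipoprotein, fell from a control median of 4.64 (4.49 to 4.85) to a knockout median of 3.31 (3.10 to 3.44), a difference of -1.38, and by more later, at -2.33 at ZT12 and -2.95 at ZT16. Fgf1, a growth factor that lowers glucose, was not called at ZT8 (0.01), where controls lay at 3.66 to 4.03 (median 3.91) and knockouts at 2.92 to 4.54 (median 4.05), and was lower later, at -0.98 at ZT12 and -2.01 at ZT16 (difference adjusted p = 6.6e-05). Tsku, a secreted proteoglycan, fell by 0.80 against -1.87 at ZT12 and -2.77 at ZT16. In NAD metabolism 3 of 18 genes rose and 8 fell, or 2 and 5 without control replicate 3, 4 and 5 without replicate 3 and 3 and 5 without knockout replicate 4. There Acmsd, which diverts tryptophan from NAD synthesis, rose from a control median of -1.01 (-1.43 to -0.66) to a knockout median of 1.70 (1.43 to 2.91), or 7.77-fold. Nnmt, which methylates nicotinamide, rose 3.49-fold. Ccnd1, cyclin D1, rose from a control median of 2.22 (1.79 to 2.91) to a knockout median of 4.87 (4.56 to 5.16), or 5.80-fold.

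**Figure D3:**
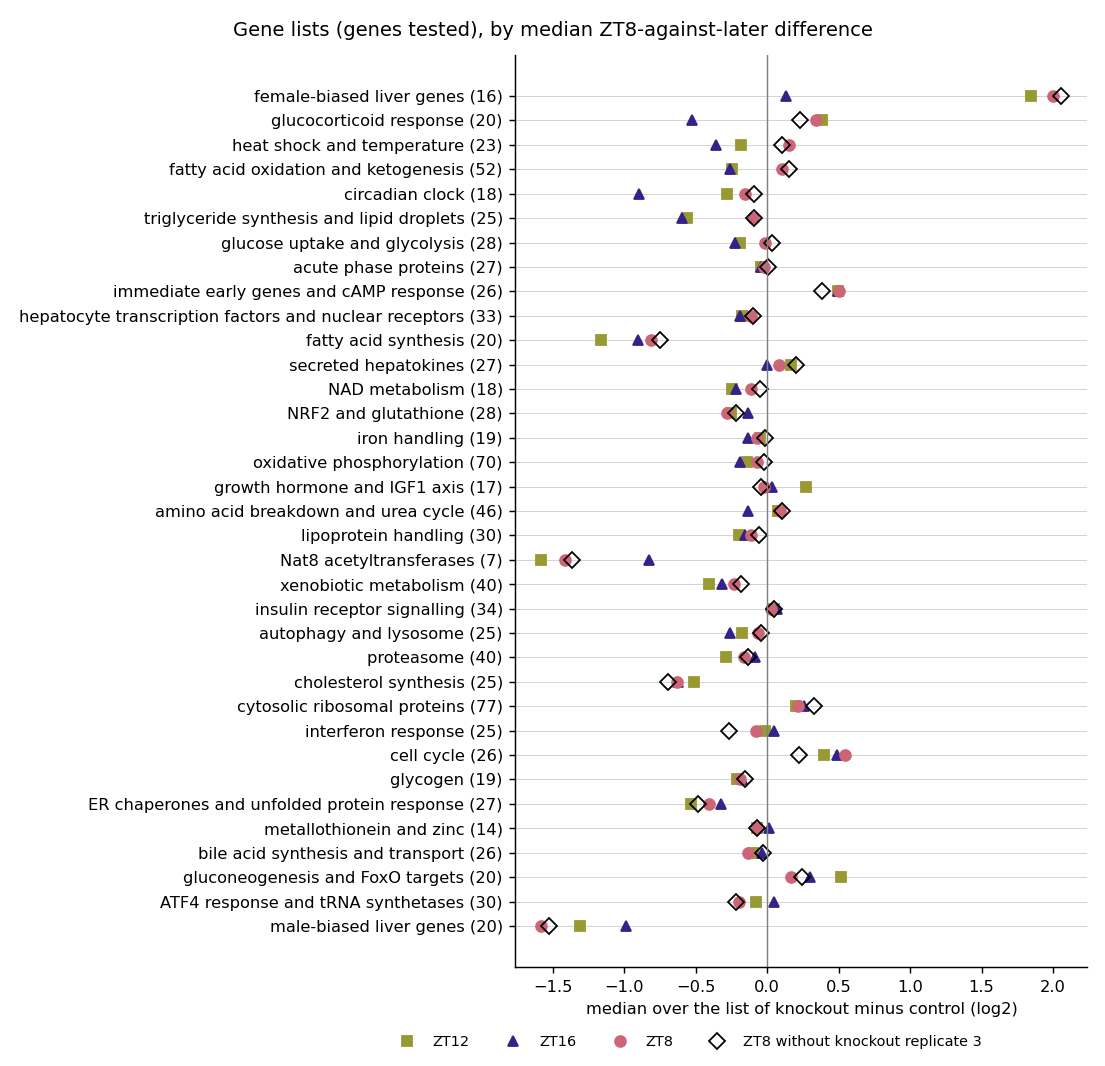
Median knockout minus control (log2, x axis) over the tested genes of each of 35 lists, with the number tested in brackets, at ZT8 (circles), ZT8 without knockout replicate 3 (diamonds), ZT12 (squares) and ZT16 (triangles). Lists are ordered by their median difference. Female-biased genes (2.00 at ZT8, 0.13 at ZT16) are at the top and male-biased genes (-1.58) at the bottom.

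The 10 largest rises and falls were taken among called genes with a symbol, well above background on all 12 ZT8 arrays and without overlap between genotypes. The largest of these rises was that of Gpx3, the secreted glutathione peroxidase, from a control median of -2.88 (-3.29 to -2.36) to a knockout median of 6.43 (5.56 to 7.12), or 576-fold (adjusted p = 3.3e-23). Next among them were Ppp1r3g, described above, and Ntf3, a neurotrophin, at 35.9-fold. Slc22a26, an organic anion transporter of the female-biased list, rose by 4.32, from a control median of -2.74 (-3.52 to -1.20) to a knockout median of 2.01 (1.09 to 2.37). Tuba8, an alpha tubulin, rose 19.5-fold, Krt23, a keratin, 19.3-fold, and Hrob, a factor of homologous recombination, 14.9-fold. The unannotated transcript B930025P03Rik rose 18.7-fold at ZT8, less than later, with log2 effects of 4.23, 6.83 and 8.42. Igfbp1 and Mt2 complete the 10. Of these 10, B930025P03Rik and Mt2 had a called difference from the later times. Cux2, described above, rose by 5.50 but was left out of the 10 because 4 of the 6 controls were not well above background. The folds given for the largest rises and falls are those of the main setting. Fold size depended on the setting, as for Cux2.

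The largest falls under the same limits included genes of the Nat8 acetyltransferase cluster, whose probes may share signal. Nat8f5 fell from a control median of 2.42 (1.47 to 2.66) to a knockout median of -4.00 (-4.70 to -3.09), or 79.4-fold, and Nat8 22.4-fold. All 7 tested members of the cluster fell, against 18.7% of all genes, and 6 of the 7 did not overlap, against 15.5% of all genes. Myom2, a sarcomere protein, fell 75.2-fold, with replicate 3 at 0.19 against -4.55 to -2.88 in the other knockouts, and its difference was -6.90 without replicate 3. Car3, carbonic anhydrase 3, a male-biased enzyme, fell from a control median of 8.41 (8.18 to 8.60) to a knockout median of 4.33 (2.76 to 5.22), or 19.7-fold. Inhbe, the activin E subunit, fell 18.6-fold, from a control median of 3.14 (2.36 to 3.65) to a knockout median of -1.08 (-2.31 to -0.19). Sucnr1, the succinate receptor, fell 11.7-fold. Dct, dopachrome tautomerase, fell by 4.09 on its brighter probe and gave -0.41 on the other. The predicted genes Gm4956, Gm11967 and BC049987 gave -4.40, -4.08 and -4.00.

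Among genes that rose at ZT8, rose more than later and were well above background on all 12 ZT8 arrays, several outside the lists stood out by size. Rab30, a small GTPase of the Golgi, lay at -2.02 to -0.33 (median -1.10) in controls and -0.72 to 2.20 (median 0.75) in knockouts, with replicate 3 alone inside the control range. It rose by 1.76 ± 0.33 (adjusted p = 1.1e-04), against -0.42 at ZT12 and -0.21 at ZT16 (difference adjusted p = 0.002). Pdxp, the pyridoxal phosphatase, which breaks down the active form of vitamin B6, reversed its direction between times. It lay at -4.36 to -3.46 (median -3.93) in controls and -3.19 to -2.64 (median -2.76) in knockouts at ZT8, a rise of 1.02 ± 0.18 (adjusted p = 6.4e-05), and was -1.07 at ZT12 and -0.97 at ZT16 (difference adjusted p = 2.4e-06). Control means of Pdxp were -3.90 at ZT8 and -0.99 and -1.12 later, whereas knockout means were -2.83, -2.11 and -2.10.

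Ak4, a mitochondrial adenylate kinase, rose by 0.63 (adjusted p = 0.0083) and was lower later, at -0.90 at ZT12 and -1.27 at ZT16. Replicate 3 was lowest of all 12 arrays for Ak4, at 3.83, and without it the rise was 0.86. In a fit of the 12 ZT8 arrays alone it was not called (adjusted p = 0.087). Gm23952, a predicted gene, rose by 1.33 against -0.18 at ZT12 and -0.64 at ZT16. Lcn2, lipocalin 2, an acute phase protein that binds siderophores, rose by 2.06, with replicate 3 highest at 4.14 and the other knockouts at 1.50 to 2.71. The difference of Lcn2 from later had an adjusted p of 0.043. The call was lost without any 1 of 19 of the 36 arrays (control ZT8 replicates 1, 2, 4 and 5, knockout ZT8 replicates 2, 3 and 4, control ZT12 replicates 1, 4, 5 and 6, knockout ZT12 replicates 1, 2 and 4, control ZT16 replicates 1, 3 and 6, knockout ZT16 replicates 3 and 6), with adjusted p of 0.0506 to 0.0891.

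Among genes that fell at ZT8 and fell more than later under the same limit, Nim1k, an AMPK-related kinase, lay at -0.52 to -0.15 (median -0.32) in controls and -3.15 to -2.60 (median -2.98) in knockouts. Both groups were narrow, and the difference was -2.63 ± 0.20 (adjusted p = 1.8e-11), against -1.37 at ZT12 and -0.56 at ZT16. Carmil1, a regulator of actin capping, fell by 2.48 against -1.21 at ZT12 and -0.89 at ZT16. Mrnip, a DNA repair cofactor, fell from a control median of 1.85 (1.29 to 1.98) to a knockout median of 0.37 (0.22 to 0.55), a difference of -1.35, and was 0.71 at ZT16, although its dimmer probe gave -0.06. Rfxank, a factor that switches on MHC class II genes, fell by 1.13 at ZT8 and was 0.95 at ZT16 (difference adjusted p = 1.8e-06). Replicate 3 lay at the upper end of the knockouts for Rfxank, at -0.85, so the fall was larger without it (-1.22).

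For Wwox, Asap2, H1f2 and Spata22, as for Mrnip and Rfxank, the effect was called in the opposite direction at ZT16. Wwox, an oxidoreductase, gave -0.80 at ZT8 (adjusted p = 0.0026) and 0.44 at ZT12 and 1.82 at ZT16 (difference adjusted p = 1.5e-05). The other 3 probes of Wwox gave -0.09, -0.30 and -0.27 at ZT8 and -0.97, -0.31 and -0.97 at ZT16, so its order of times holds for the brightest probe only. Asap2, a GTPase activator, gave -0.72 and 0.97 at ZT12 and 1.26 at ZT16, and its second probe gave -0.49, 1.04 and 1.32. H1f2, a linker histone, gave -0.96 at ZT8 and -0.19 at ZT12 and 1.59 at ZT16, with replicate 3 at 2.06 far above the other knockouts at 0.26 to 0.98. Spata22, a meiotic gene, gave -0.95 and 0.13 at ZT12 and 1.16 at ZT16, and replicate 3 was lowest at -3.49.

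Weaker effects at ZT8 covered genes called in 1 direction at both later times. Depp1, a FoxO target of fasting and autophagy, was not called at ZT8, with 2.67 to 3.76 (median 2.97) in controls and 2.91 to 4.12 (median 3.17) in knockouts, and was higher by 2.12 at ZT12 and 2.27 at ZT16. Its control means were 3.10 at ZT8 and 1.92 and 1.59 later, while knockout means were 3.40, 4.02 and 3.85. The difference (adjusted p = 0.031) was not called without control ZT8 replicate 2 or 3 or knockout ZT8 replicate 4 or 5 (adjusted p of 0.051 to 0.063). The predicted genes Gm826 and Gm26588 gave -0.08 and -0.52 at ZT8. They were lower later, Gm826 at -1.64 at ZT12 and -2.94 at ZT16 and Gm26588 at -2.83 at ZT12 and -2.18 at ZT16. E030018B13Rik gave 0.48 at ZT8 (adjusted p = 0.068) and -1.36 at ZT12 and -1.56 at ZT16.

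**Figure D4:**
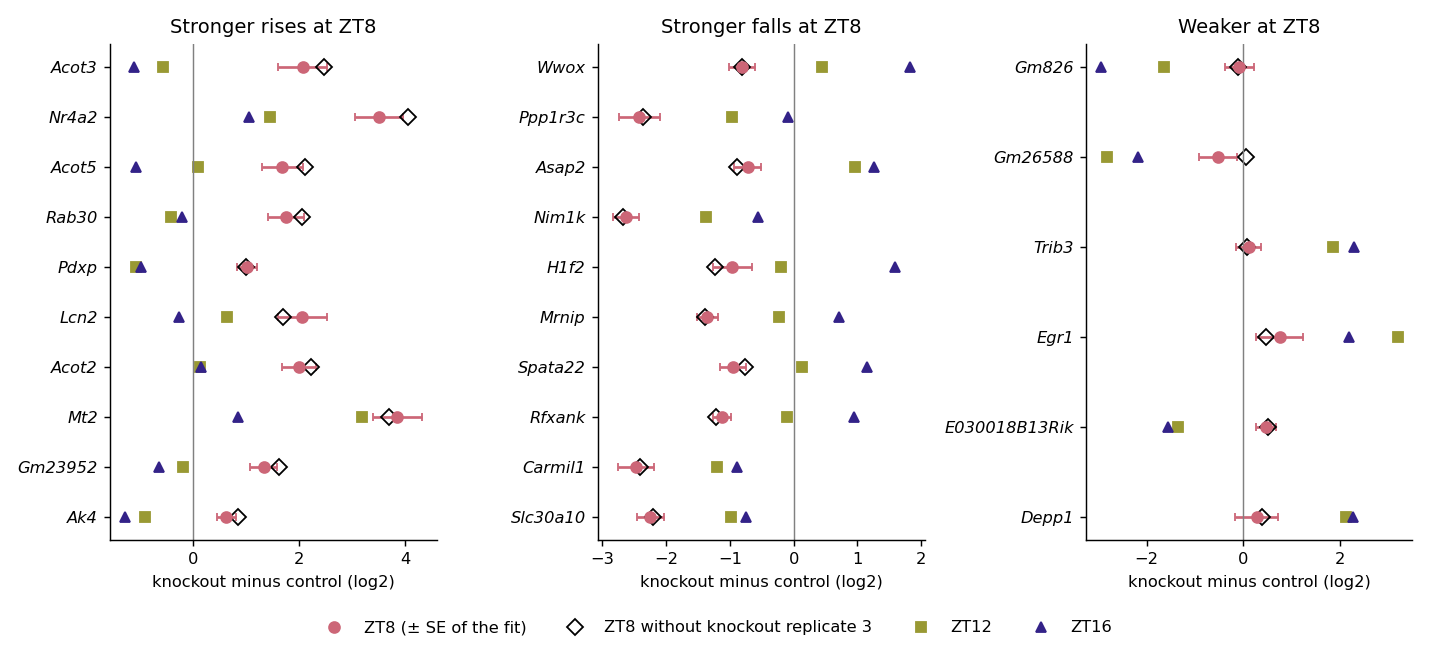
Knockout minus control (log2, x axes) of the 10 genes with the largest stronger rise at ZT8, the 10 with the largest stronger fall and the 6 with the largest weaker effect, all well above background on the 12 ZT8 arrays, at ZT8 (circles with the SE of the fit), ZT8 without knockout replicate 3 (diamonds), ZT12 (squares) and ZT16 (triangles). Pdxp is at 1.02 at ZT8 and -1.07 and -0.97 later, and Trib3 at 0.11 at ZT8 and 1.86 and 2.29 later.

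Knockout replicate 3 differed from the other 5 knockouts by group of genes. It was above all of them for 4977 genes (21.7%) and below all for 8147 (35.6%). It was above all 5 for 22 of 26 cell cycle genes, with a median deviation of 2.16, and for 23 of 25 interferon-response genes, at 1.77. Markers of stellate cells and fibroblasts were above in 11 of 12 cases (1.17) and of macrophages in 7 of 10 (0.90). Hepatocyte markers were below in 5 of 8 (-0.39), and xenobiotic genes in 28 of 40 (-0.75). Its knockout status was as clear as in the others, with the lowest Insr of all 12 arrays at -3.54. Of 25 interferon-response genes 2 were higher and 1 lower at ZT8, and 1 higher and 8 lower without it. Without control replicate 4 it was 1 higher and none lower. Of 26 cell cycle genes 7 rose and none fell, and 4 rose and 1 fell without it. Results were also computed with the array left out, and the part of these levels in them was not tested otherwise.

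**Figure D5:**
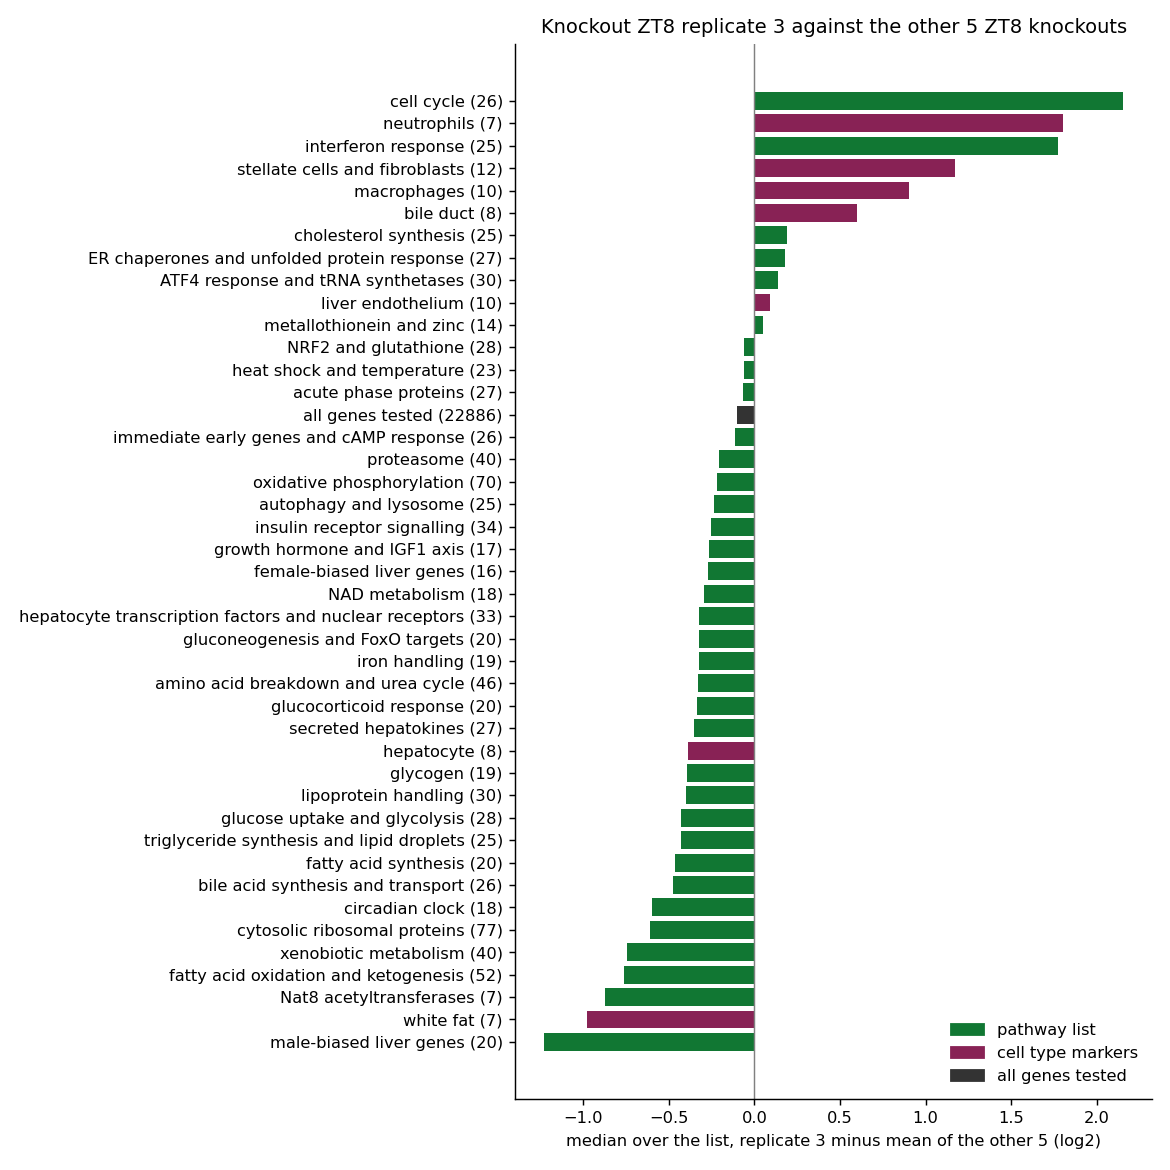
Median over each list with at least 7 tested genes (number in brackets) of knockout ZT8 replicate 3 minus the mean of the other 5 ZT8 knockouts (log2, x axis). Green bars are pathway lists, purple bars cell type markers and the dark bar all genes tested (-0.10). Cell cycle genes (2.16) stand highest and male-biased genes (-1.23) lowest.

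Markers of cell types were read in the same arrays. All 8 hepatocyte markers were well above background on all 12 arrays, and their summed level (log2) was 11.97 to 12.25 in controls and 11.56 to 12.13 in knockouts. Of these, 2 fell and none rose, namely Alb at -0.41 and Ttr, whose promoter drives the Cre, at -1.12 (adjusted p = 1.2e-12). Of 10 liver endothelium markers none was called at ZT8 (median 0.04, summed level 5.25 to 5.54 in controls and 5.22 to 5.65 in knockouts), while 9 were higher in knockouts at ZT12 and 8 at ZT16 (medians 0.47 and 0.39). Of all genes, 42.3% were called at ZT12 and 40.0% at ZT16, both directions together. The difference from later was negative for 6 of the 10, for 7 without replicate 3, and for 1 to 3 without any 1 of 18 other arrays (control ZT8 replicates 1, 3, 4, 5 and 6, knockout ZT8 replicates 1, 2 and 5, control ZT12 replicates 4 and 5, knockout ZT12 replicates 5 and 6, control ZT16 replicates 1, 3, 4 and 5, knockout ZT16 replicates 1 and 2). Of 12 stellate and fibroblast markers 1 rose at ZT8 (5.69 to 6.20 in controls and 5.52 to 6.93 in knockouts), and of 10 macrophage markers 2 rose, or 5 without knockout replicate 1 and 4 without knockout replicate 2 or knockout ZT12 replicate 6 (5.58 to 6.85 in controls and 6.10 to 8.17 in knockouts). Of 6 lymphocyte markers 3 rose (4.87 to 5.12 in controls and 4.40 to 5.23 in knockouts), of 7 neutrophil markers 1 rose (6.45 to 6.73 in controls and 6.56 to 6.83 in knockouts), and of 8 bile duct markers 1 fell (2.55 to 3.06 in controls and 1.24 to 3.59 in knockouts).

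Red cell markers had 1 of 5 lower at ZT8, with a summed level of 7.87 to 9.35 in controls and 7.58 to 8.66 in knockouts. The difference from later was negative for 4, and for 2 without control replicate 6 and 1 without knockout replicate 2. The hemoglobin genes Hba-a1 and Hbb-b1 gave -0.12 and -0.73 at ZT8, neither called, against 0.95 and 1.05 at ZT12. Of 5 tested exocrine pancreas genes 3 fell and 1 rose (5.47 to 5.88 in controls and 3.62 to 4.34 in knockouts), of 7 white fat markers 1 fell (1.21 to 2.08 in controls and 1.17 to 2.54 in knockouts) and of 4 muscle markers 1 rose (-1.78 to -1.39 in controls and -1.92 to -1.40 in knockouts). The part of cell type shares in the differences between ZT8 and the later times was not tested.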

How the data were processed

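Liver RNA was read on Agilent one-colour 60-mer arrays. Per the file headers, the deposited scanner files give each spot's intensity as a processed signal, background-subtracted by Feature Extraction (version 10.10.1.1 in the submitters' processing notes), with flags for signal well above background. The authors deposited a second table of log2 values, used as an alternative. Its columns shared 1 set of sorted values, as after quantile normalization, its rows lay closest to the median signal, and its other steps are not given in the sources used here.

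From the intensities, each array's 75th percentile (59305 spots, controls left out) was subtracted on the log2 scale and spots averaged per probe. Probes well above background on at least 6 of 36 arrays were kept, less 93 with missing values, leaving 34681. The brightest probe stood for each gene, with symbols from RefSeq for 16835 of 22886 genes. limma 3.58.1 in R 4.3.3 fitted 6 group means and wash batch over all 36 arrays (28 residual degrees of freedom), with Benjamini-Hochberg adjustment at 0.05; it was tested on simulated data. Probes flagged on no array of a group give "at least" folds, against the lowest well-measured signal. Wash batches number 3 and slides 9.

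Named genes were Insr, the largest called changes at ZT8, the largest differences from later, and up to 4 members of each pathway list with the smallest p for either contrast; a few of these are not reported here. The genes and lists were chosen with earlier results of these data known, so their counts are descriptive. Cyp, ribosomal and other similar genes may share probe signal. Promoters were found for 110 of 140 named genes. Other settings were normexp background correction (offset 50), quantile normalization, other filters, the mean of a gene's probes, no wash batch, slide or replicate number as a block, array weights, the ZT8 arrays alone, and each array left out.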

Additional observations from a re-analysis of the deposited data

Results flagged for a closer look

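In 37 of 280 sets of 6 ZT8 arrays of 1 genotype, over the genes named above, the array at 1 end lay further from its neighbour than Dixon's critical value for 6 samples allows as a share of the whole range. Chance gives about 14 such sets. Of the 37, 16 were knockout replicate 3. Knockout ZT8 replicate 3 was lowest of its group, at 1.43 for Irs1, 4.00 for Ppp1r3g, 6.55 for Gys2, 4.39 for Scd1, -2.24 for Plin4, 6.77 for Scp2, 2.05 for Bhlhe40, 5.63 for Hspa8, 6.90 for Por, 2.84 for B930025P03Rik, 1.01 for Ntf3, 6.81 for Rplp0 and 5.28 for Haao. Knockout ZT8 replicate 3 was highest of its group, at 1.85 for Fos, 4.07 for Egr1 and 0.19 for Myom2. Control ZT8 replicate 1 was lowest of its group, at -5.92 for Cux2, 3.06 for Nat8 and 1.86 for Gm4956. Control ZT8 replicate 1 was highest of its group, at 1.76 for Tuba8. Control ZT8 replicate 2 was highest of its group, at 7.48 for Acaa1a. Control ZT8 replicate 4 was lowest of its group, at 6.19 for Gys2. Control ZT8 replicate 4 was highest of its group, at 1.12 for Esr1. Control ZT8 replicate 5 was lowest of its group, at 6.74 for Itih3. Control ZT8 replicate 5 was highest of its group, at 1.85 for Pik3r1 and 1.39 for Map1lc3a. Control ZT8 replicate 6 was lowest of its group, at 4.78 for Hsd3b5. Control ZT8 replicate 6 was highest of its group, at -0.084 for Acot2 and 4.28 for Mt2. Knockout ZT8 replicate 1 was lowest of its group, at 3.87 for Hsp90aa1. Knockout ZT8 replicate 1 was highest of its group, at 2.21 for Esr1, 4.14 for Slc7a2 and 3.76 for Gabarapl2. Knockout ZT8 replicate 2 was highest of its group, at 3.14 for Acot2, 8.03 for Acaa1a, 4.62 for Krt23 and -1.78 for Tsku.

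The genotype effect at ZT8 minus the mean effect at ZT12 and ZT16 was called for 78 of the genes named above (limma, adjusted p under 0.05 over all genes). Many of them were named for this same difference, so the count reflects that choice. Of all genes tested 7.00% were called for it. A positive difference was found for 47 genes, the furthest from 0 being 2.93 for Ciart, 2.90 for Acot3, 2.26 for Nr4a2, 2.21 for Gm826, 2.17 for Acot5, 2.07 for Rab30, 2.04 for Pdxp, 1.98 for Gm26588, 1.93 for E030018B13Rik and 1.91 for Thrsp. Next came 1.86 for Lcn2, 1.85 for Acot2, 1.83 for Mt2, 1.76 for Fkbp5, 1.74 for Gm23952, 1.72 for Ak4, 1.66 for Acot4, 1.55 for Plin4, 1.52 for Tsku and 1.50 for Fgf1. These were followed by 1.48 for Per2, 1.45 for Cyp2a4, 1.45 for Fmo2, 1.30 for Cux2, 1.26 for Saa4, 1.20 for Pex11a, 1.18 for Me1, 1.11 for Aldh3a2, 1.06 for Gys2 and 1.02 for Tef. Then came 0.99 for Ppp1r3b, 0.93 for Nat8, 0.91 for Nr1i2, 0.86 for Por, 0.82 for Hsp90aa1, 0.81 for Hspa8, 0.79 for Fmo5, 0.79 for Nr1h4, 0.77 for Il6ra and 0.72 for Pik3r1. Smaller ones were 0.71 for Acaa1a, 0.66 for Esr1, 0.65 for Abcc3, 0.65 for Dnaja1, 0.53 for Eno1, 0.47 for Gpi1 and 0.42 for Hspe1. A negative difference was found for 31 genes, the furthest from 0 being -3.40 for B930025P03Rik, -2.28 for Bhlhe41, -1.97 for Trib3, -1.94 for Egr1, -1.93 for Wwox, -1.92 for Depp1, -1.89 for Arntl, -1.89 for Ppp1r3c, -1.84 for Asap2 and -1.66 for Nim1k. Next came -1.66 for H1f2, -1.59 for Mrnip, -1.59 for Spata22, -1.54 for Rfxank, -1.44 for Sgk1, -1.43 for Carmil1, -1.39 for Slc30a10, -1.11 for Elovl5, -1.04 for Hsd3b7 and -0.97 for Fga. Smaller ones were -0.89 for Cars, -0.82 for Lpin3, -0.81 for Cirbp, -0.72 for Clock, -0.62 for Mars1, -0.58 for Sesn3, -0.50 for Fgg, -0.50 for Lars, -0.44 for Sesn1, -0.44 for Sars and -0.44 for Fgb.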

How the results depend on the processing

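The count of 8114 genes called at ZT8 stayed between 6276 (the 12 ZT8 arrays alone) and 9335 (array weights) under the other settings, and 43.7% to 50.1% of the called genes were higher in knockouts. Leaving out each ZT8 array gave 7250 to 8493 genes, and -1.86 to -1.67 for Insr. Genes called with at least a 2-fold change numbered 1402 in the main fit. Under the other settings they numbered 660 (normexp background correction) to 1491 (no filter on dim probes), with 789 in the authors' table. The ZT8-against-later counts depended more on the setting than the count of 8114. For all differences (1601), stronger rises (327), stronger falls (419) and weaker effects (483) in that order, array weights gave 3005, 686, 767 and 869. Without a filter on dim probes they were 972, 186, 233 and 310, with 36912 genes tested. Requiring both pairwise differences gave 224, 49, 54 and 93. Leaving out each of the 36 arrays gave 1124 to 2655, 205 to 608, 276 to 640 and 347 to 838, the upper end without knockout ZT8 replicate 3. No setting reversed a called value. Of 139 named genes 117 kept their call or its lack at ZT8 under every array left out and every setting, as did 64 of the 78 called for the difference. The choice of probe (the mean of a gene's probes) changed 9 calls at ZT8 and 10 of the difference. It ended the difference of Gpi1, Elovl5, Me1, Lpin3, Mt2, Egr1, Cux2, Lcn2, Wwox and Carmil1 and the ZT8 call of Elovl5, Lpin3, Hsp90aa1, Cirbp, Asap2, H1f2, Gabarapl2 and Nr2f6, and Dnaja1 was then called. With array weights the difference was positive for 32 genes of fatty acid oxidation, 10 of the clock, 10 of glycolysis and 9 of triglyceride synthesis, against 13, 6, 4 and 5. Without a filter on dim probes it was positive for 7 of fatty acid oxidation, 2 of triglyceride synthesis and 2 of the glucocorticoid response, and negative for 1 of liver endothelium. The number of arrays limits the precision.

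With the replicate number as a block 8132 genes were called at ZT8 and 1655 for the difference. Deviations of same-numbered samples correlated at -0.160 to 0.143, and 2 of 6 numbers matched best with themselves. These values gave no sign of pairing by number, but they cannot exclude a pairing in the design.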
